A study of Mus musculus with 3 samples.

Results

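The transcripts of 9 surface proteins that adjust or mark T cell activation were followed in donor T cells of mice with graft-versus-host disease. They were Icos, Cd28, Cd27, Tnfrsf4, Tnfrsf9, Tnfrsf18, Cd40lg, Cd69 and Cd5, chosen by name, and each of them was found among the 18029 genes of the count table. The set holds costimulatory receptors, 1 costimulatory ligand (Cd40lg), an early activation marker (Cd69) and a receptor that dampens T cell receptor signalling (Cd5). B6D2F1 recipients had received B6 bone marrow, B6 T cells and a small number of TEa T cells, which carry a transgenic T cell receptor, and were given saline or cyclosporine (CSA), the latter at 5 or 50 mg/kg, every day from day 0 to day 6. Spleens of 6 mice per group were taken on day 7 and joined as 3 hashtagged pools of 2 mice, and sorted CD4+ and CD8+ donor T cells of a group were mixed and captured together for single-cell RNA sequencing. A treatment group was thus 1 capture, the 9 pools are the replicates, and capture and treatment cannot be told apart.

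A T cell that meets antigen needs a second signal from costimulatory receptors to divide and to persist. CD28 and ICOS are related receptors that recruit PI3 kinase, whereas CD27, OX40 (Tnfrsf4), 4-1BB (Tnfrsf9) and GITR (Tnfrsf18) belong to the TNF receptor family and signal through TRAF adaptors to NF-κB. CSA inhibits calcineurin, the phosphatase that activates the NFAT transcription factors, and several of these genes are induced after T cell receptor engagement. In the mm10 build Cd28 and Icos lie 187413 bases apart on chromosome 1 (60746388 to 60773359 and 60960773 to 61000322), Cd27 and Cd69 on chromosome 6 (125232620 to 125237136 and 129267324 to 129275375), Tnfrsf9 on chromosome 4 (150920155 to 150946104), Cd40lg on the X chromosome (57212143 to 57224042) and Cd5 on chromosome 19 (10718107 to 10739026).

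The 20924 cells analysed, after 280 TEa cells were left out, comprised 10091 CD4+ and 10833 CD8+ T cells. Pools held 3994968 to 7592334 UMIs (unique transcript molecules) in CD4+ cells and 4392100 to 11454636 in CD8+ cells. Median UMIs per CD4+ cell were 3097 in saline pools, 4396 in those given 5 mg/kg and 5979.5 in those given 50 mg/kg, and those per CD8+ cell were 4108, 6121.5 and 7183. No CD4+ cell held a Cd8a UMI and no CD8+ cell a Cd4 UMI. How cells had been assigned to a lineage was not examined here, so these zeros are not taken as a measure of purity. Cd8b1, the other chain of the CD8 receptor and a gene that CD4+ T cells should lack, was nevertheless read in 40.6% ± 1.56 of CD4+ saline cells, 35.4% ± 0.965 at the lower and 13.6% ± 1.37 at the higher dose (SD, n = 3). Its summed level in CD4+ cells was 11.3% of that in CD8+ cells in saline, 6.40% at the lower and 0.86% at the higher dose, so this background of the other lineage shrank with dose. Of 20986 distinct cell barcodes, 218 occurred in more than 1 capture. In 1080 cells the second strongest hashtag reached 0.5 or more of the first. Summed markers of other cells moved with dose: the 7 B cell markers lay at 198 to 213 CPM (a gene's UMIs as a scaled share of all UMIs of its pool) in CD4+ saline pools and at 280 to 297 CPM at 50 mg/kg, and at 185 to 210.0 and 361 to 427 CPM in CD8+ pools. The 6 erythroid markers lay at 7.31 to 17.8 CPM in CD4+ saline pools and at 29.5 to 39.2 CPM at 50 mg/kg. The part of these cells in the results was not tested.

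Levels of the members are given as CPM scaled by TMM (trimmed mean of M values), and a member passed when its Benjamini-Hochberg adjusted p from edgeR's quasi-likelihood test, over all genes tested, was under 0.05. Under scaling by library size alone, the median change of all genes tested at 50 mg/kg against saline was -0.45 in CD4+ and -0.53 in CD8+ cells on the log2 scale, and at 5 mg/kg it was -0.37 and -0.43, whereas under TMM it lay between -0.01 and 0.00. A rise smaller than this shift therefore depends on the scaling, and the members' changes from saline that passed are given under both. Both doses were set against the same saline pools. Pools of 2 groups without overlap were common over all genes tested, under TMM. In CD4+ cells 57.7% of genes had pools apart from saline at 5 mg/kg, 72.7% at 50 mg/kg and 50.2% between the doses. In CD8+ cells the shares were 66.0%, 75.8% and 49.0%. In a sum over a pool, fewer cells of a type and less RNA per cell cannot be told apart, so the changes were also measured inside clusters.

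At 50 mg/kg, CD4+ T cells had less Icos, Tnfrsf9, Tnfrsf4 and Cd27 transcript and more Cd5, under both scalings. Icos and Tnfrsf9 fell to 0.373 and 0.370 of their saline level, and Cd5 rose 1.80-fold. In CD8+ T cells Tnfrsf9 and Icos fell, with Tnfrsf9 at 0.264 of saline. Tnfrsf4 and Cd40lg fell in the CD8+ sums as well, Tnfrsf4 to 0.0659 of saline. Their CD8+ saline levels were only 15.2% and 4.64% of the CD4+ levels by library size. Cd8b1, as background in CD4+ saline cells, stood at 11.3% of its CD8+ level, and the part of such background in their fall was not tested. At 5 mg/kg, CD4+ cells had more Tnfrsf4, Tnfrsf18 and Cd40lg than in saline under both scalings, so for Tnfrsf4 in CD4+ cells the lower dose lay above saline and the higher dose below it.

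Under TMM, 5 members rose and 1 fell in CD4+ cells at 5 mg/kg, where 26.1% of all 10568 genes tested rose and 25.6% fell. At 50 mg/kg, 2 members rose and 4 fell, against 34.7% and 35.8% of all genes. In CD8+ cells 4 rose and 3 fell at 5 mg/kg, against 29.9% and 30.3% of 10841 genes, and 4 rose and 4 fell at 50 mg/kg, against 37.1% and 36.9%. Under library size scaling the counts at 50 mg/kg were 1 higher and 7 lower in CD4+ cells and 0 higher and 9 lower in CD8+ cells, while over all genes 15.1% rose and 59.0% fell in CD4+ cells and 15.6% and 62.7% in CD8+ cells. At 5 mg/kg they were 3 higher and 5 lower in CD4+ cells, against 8.76% and 54.1% of all genes, and 0 higher and 5 lower in CD8+ cells, against 10.9% and 57.8%.

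**Figure D1:**
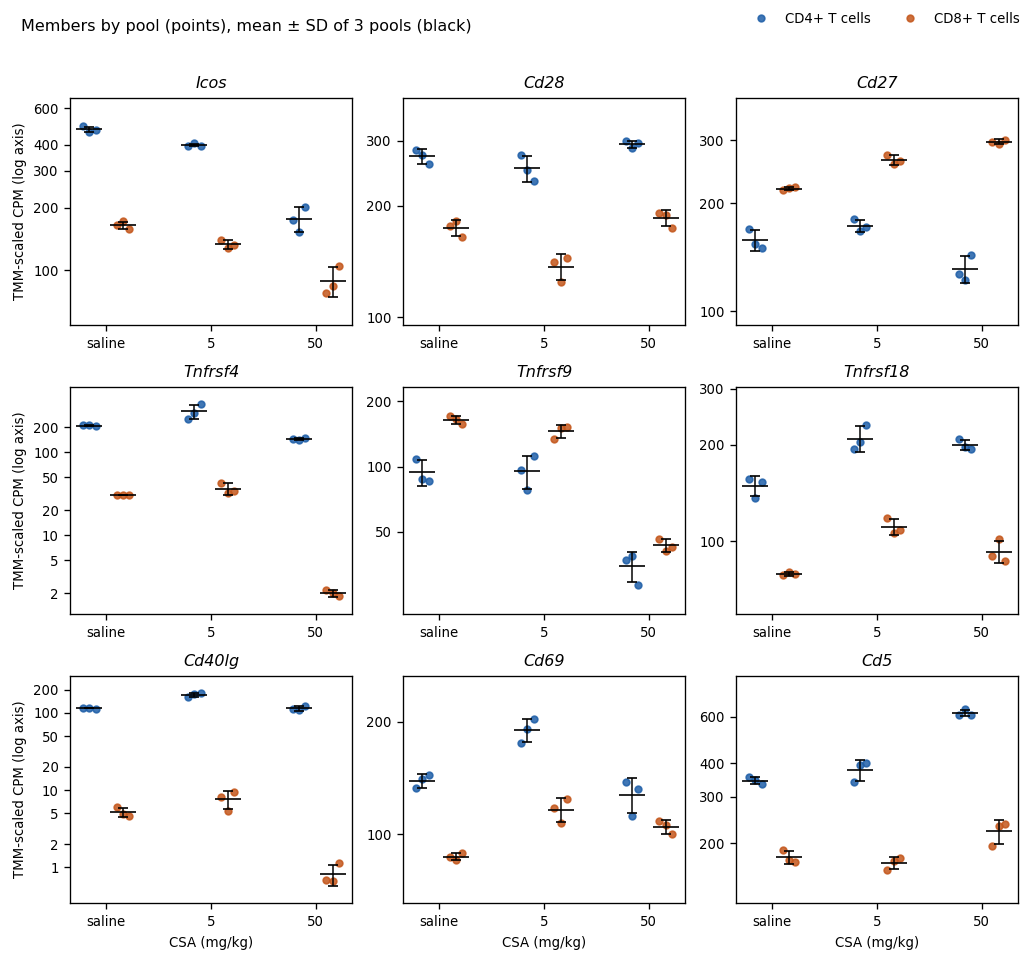
TMM-scaled CPM (log axis) of the 9 members by CSA dose, with 1 point per pool (blue CD4+, orange CD8+) and the mean ± SD of 3 pools in black. Tnfrsf4 and Cd40lg of CD8+ cells drop to 2.02 and 0.827 CPM at 50 mg/kg, and Cd5 of CD4+ cells rises to 619 CPM.

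Among the CD28 family, Icos, the receptor that supports follicular helper differentiation, was lower at both doses in both lineages. In CD4+ cells its saline pools held 490.3, 463 and 469 TMM CPM, those at 5 mg/kg 396, 406 and 397, and those at 50 mg/kg 175, 153 and 201. The 3 groups did not overlap and lay in order of dose. The log2 change was -0.25 (SE 0.0592, adjusted p = 0.00155) at 5 mg/kg and -1.42 (SE 0.062, adjusted p = 1.89e-14) at 50 mg/kg, and -0.60 and -1.86 under library size scaling. In CD8+ cells the pools held 164, 172 and 159 TMM CPM in saline, 141, 128 and 132 at 5 mg/kg and 78.1, 84.0 and 105 at 50 mg/kg. These groups did not overlap either, and the log2 change was -0.31 (adjusted p = 0.00217) and -0.88 (adjusted p = 1.04e-08), or -0.73 and -1.41 by library size.

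Cd28, the receptor of B7 ligands on antigen-presenting cells, passed at 50 mg/kg in neither lineage under TMM and was lower in both by library size. CD4+ pools held 283, 275 and 259 TMM CPM in saline, 275, 249 and 234 at 5 mg/kg, and 299, 287 and 296 at 50 mg/kg. Neither dose passed against saline in CD4+ cells under TMM (adjusted p = 0.0807 and 0.053), while by library size both values were negative (-0.47 and -0.33) and passed. The value at 50 mg/kg (0.11) passed without saline pool 1 (0.14) or 5 mg/kg pool 1 (0.12) or 3 (0.11), and that at 5 mg/kg (-0.11) without saline pool 3 (-0.15) or 5 mg/kg pool 1 (-0.17). CD8+ pools held 176, 182 and 164 TMM CPM in saline, 141, 124 and 145 at 5 mg/kg, and 192, 189 and 175 at 50 mg/kg. The pools at 5 mg/kg lay below all others, with a log2 change from saline of -0.35 (SE 0.0599, adjusted p = 7.41e-05), and -0.77 by library size. At 50 mg/kg the value was 0.09 (adjusted p = 0.176), against -0.44 by library size (adjusted p = 1.8e-06), and it passed without 50 mg/kg pool 3 (0.13). From 5 to 50 mg/kg Cd28 rose in both lineages, by 0.22 in CD4+ and 0.43 in CD8+ cells on the log2 scale, and by 0.14 and 0.33 under library size scaling (largest adjusted p of the 4, 0.0372).

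Of the TNF receptor family, Cd27, a receptor kept by naive and memory T cells, moved in opposite directions in the lineages at 50 mg/kg under TMM and was lower in both by library size. CD4+ pools held 169.9, 154 and 150.0 TMM CPM in saline, 181, 167 and 171 at 5 mg/kg, and 127, 122 and 144 at 50 mg/kg, where all pools lay below saline. The log2 change at 50 mg/kg was -0.26 (SE 0.0607, adjusted p = 0.00062), and -0.70 by library size. At 5 mg/kg the value was 0.13 (adjusted p = 0.0712), and it passed without saline pool 1 (0.18) or 50 mg/kg pool 3 (0.14). CD8+ pools held 218, 221 and 222 TMM CPM in saline, 273, 257 and 263 at 5 mg/kg, and 298, 293 and 302 at 50 mg/kg, 3 groups in order with no overlap. This rise of 0.43 (SE 0.0384, adjusted p = 1.15e-08) at 50 mg/kg was -0.10 under library size scaling, and that of 0.26 at 5 mg/kg was -0.16.

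Tnfrsf4, which encodes OX40, a receptor induced on activated T cells, stood at 210.3, 209 and 208 TMM CPM in CD4+ saline pools, 254, 299 and 377 with 5 mg/kg, and 143, 140.2 and 148 with 50 mg/kg. The saline pools sat between the others without overlap. The log2 change was 0.58 (SE 0.0848, adjusted p = 7.56e-06) at the lower and -0.54 (SE 0.0886, adjusted p = 1.52e-05) at the higher dose, and 0.22 and -0.98 by library size. In CD8+ cells saline pools held 30.6, 30.3 and 30.8 TMM CPM, those at 5 mg/kg 42.9, 31.8 and 33.8, and those at 50 mg/kg 2.22, 1.99 and 1.84. The raw sums behind them were 251, 301 and 296 UMIs in saline, 174, 176 and 265 at 5 mg/kg, and 16, 15 and 18 at 50 mg/kg. The log2 change at 50 mg/kg was -3.92 (SE 0.154, adjusted p = 1.32e-13), and -4.45 by library size, whereas the 0.22 at 5 mg/kg did not pass (adjusted p = 0.0567) and was -0.20 by library size. It passed without 5 mg/kg pool 2 (0.29) or 50 mg/kg pool 3 (0.22), and was 0.57 (adjusted p = 0.00238) in cells outside the cycling clusters. The CD8+ level was 15.2% of the CD4+ level in saline, 11.6% at the lower and 1.37% at the higher dose, in CPM by library size, beside the 11.3%, 6.40% and 0.86% of Cd8b1 in the reverse direction.

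Tnfrsf9 (4-1BB), a receptor that appears after T cell receptor stimulation and is prominent on CD8+ cells, fell at 50 mg/kg in both lineages. CD4+ pools held 109, 88.1 and 85.9 TMM CPM in saline, 96.8, 78.0 and 112 at 5 mg/kg, and 37.0, 38.9 and 28.5 at 50 mg/kg. Saline and 5 mg/kg pools overlapped, with a log2 change of 0.04 (SE 0.108, adjusted p = 0.786) that was -0.32 by library size. All pools at 50 mg/kg lay below them, at a log2 change of -1.43 (SE 0.121, adjusted p = 9.88e-10), or -1.87 by library size. CD8+ pools held 171, 165 and 157 TMM CPM in saline, 134, 150.2 and 152 at 5 mg/kg, and 46.6, 40.8 and 42.7 at 50 mg/kg. They were apart at both doses, with log2 changes of -0.17 (adjusted p = 0.0162) and -1.92 (SE 0.0626, adjusted p = 1.2e-14), and of -0.59 and -2.45 by library size. The change at 5 mg/kg no longer passed without saline pool 1 (-0.14, adjusted p = 0.078), saline pool 2 (-0.17, adjusted p = 0.051) or 5 mg/kg pool 1 (-0.12, adjusted p = 0.094), and was -0.04 (adjusted p = 0.81) in cells outside the cycling clusters.

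Tnfrsf18 (GITR), high on regulatory T cells and raised on activation, stood higher with CSA under TMM. CD4+ pools held 156, 137 and 154 TMM CPM in saline, 194, 204 and 231 at 5 mg/kg, and 209, 197 and 195 at 50 mg/kg. Both doses lay above saline, by 0.50 (SE 0.0622, adjusted p = 8.29e-07) and 0.43 (SE 0.0609, adjusted p = 2.18e-06) on the log2 scale, while library size scaling gave 0.14, which still passed, and -0.01, which did not (adjusted p = 0.911). CD8+ pools held 78.3, 80.4 and 79.1 TMM CPM in saline, 119, 106 and 109 at 5 mg/kg, and 90.3, 102 and 87.1 at 50 mg/kg. The log2 change was 0.48 (adjusted p = 2.57e-06) and 0.23 (adjusted p = 0.00253), against 0.06 and -0.30 by library size, so the direction at 50 mg/kg in CD8+ cells depends on the scaling. Tnfrsf18 lies 9708 bases from Tnfrsf4 on chromosome 4 (156026322 to 156028894 and 156013595 to 156016613, mm10). Despite that position the CD8+ changes of the pair at 50 mg/kg, 0.23 and -3.92, were far apart.

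Cd40lg encodes the CD40 ligand with which helper T cells license B cells and dendritic cells. CD4+ pools held 116, 117 and 114 TMM CPM in saline, 161, 174 and 181 at 5 mg/kg, and 112, 108 and 124 at 50 mg/kg. Only the 5 mg/kg pools stood apart, with a log2 change of 0.58 (SE 0.0576, adjusted p = 3.46e-08), or 0.22 by library size. The value at 50 mg/kg was -0.01 (SE 0.0584, adjusted p = 0.892), and -0.45 by library size. In CD8+ cells the level was 5.98, 4.93 and 4.58 TMM CPM in saline, 8.14, 5.43 and 9.43 at 5 mg/kg and 0.693, 0.664 and 1.12 at 50 mg/kg. These rest on 49, 49 and 44 UMIs in saline, 33, 30 and 74 at 5 mg/kg, and 5, 5 and 11 at 50 mg/kg. These CD8+ levels were 4.64%, 4.41% and 0.702% of the CD4+ levels, all below the shares of Cd8b1 in the reverse direction. Whether they are expression by CD8+ cells or such background was not tested. The change at 50 mg/kg was -2.57 on the log2 scale (SE 0.308, adjusted p = 5.66e-07), and -3.09 by library size. The 0.60 at 5 mg/kg passed under TMM (adjusted p = 0.0208) although the pools overlapped, and did not pass by library size (0.18, adjusted p = 0.472), nor without saline pool 2 or 3 (0.56 and 0.51) or 5 mg/kg pool 1 or 3 (0.57 and 0.36).

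Cd69, an early activation antigen that retains lymphocytes in tissue by opposing S1PR1, was higher at 5 mg/kg under TMM. CD4+ pools held 133, 140.2 and 144 TMM CPM in saline, 176, 192 and 203 at 5 mg/kg, and 138, 112 and 132 at 50 mg/kg. Only the 5 mg/kg pools were apart from saline, at a log2 change of 0.46 (SE 0.0662, adjusted p = 6.75e-06) that was 0.10 and did not pass by library size (adjusted p = 0.199). At 50 mg/kg the value was -0.13 (adjusted p = 0.0958), and -0.57 by library size, and it passed without 50 mg/kg pool 1 (-0.18). CD8+ pools held 86.7, 85.3 and 88.8 TMM CPM in saline, 118, 107 and 124 at 5 mg/kg, and 108, 106 and 99.8 at 50 mg/kg. Both doses lay above saline, by 0.42 (adjusted p = 5.8e-06) and 0.27 (adjusted p = 0.000377), but library size scaling gave 0.00 and -0.26.

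Cd5, whose level on T cells follows the strength of T cell receptor signalling and which restrains that signalling, rose at 50 mg/kg in CD4+ cells. The pools held 355, 345 and 334 TMM CPM in saline, 339, 393 and 401 at 5 mg/kg, and 609.8, 639.6 and 608 at 50 mg/kg. The saline and 5 mg/kg pools overlapped, and all pools at 50 mg/kg lay above them. The log2 change at 50 mg/kg was 0.85 (SE 0.049, adjusted p = 2.15e-12), and 0.41 by library size (adjusted p = 1.12e-07). At 5 mg/kg it was 0.14 (adjusted p = 0.0288), and -0.22 by library size, and it did not pass without saline pool 2 or 3 (0.14 and 0.11) or 5 mg/kg pool 2 or 3 (0.11 and 0.09). CD8+ pools held 189, 173 and 169.7 TMM CPM in saline, 159.5, 171 and 176 at 5 mg/kg, and 196, 232 and 237 at 50 mg/kg. Here the change at 50 mg/kg was 0.33 (SE 0.063, adjusted p = 0.000152) under TMM and -0.20 (adjusted p = 0.00701) under library size scaling. It thus passed in opposite directions. At 5 mg/kg the CD8+ value was -0.07 (adjusted p = 0.411) under TMM, and -0.49 by library size (adjusted p = 3.72e-06).

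**Figure D2:**
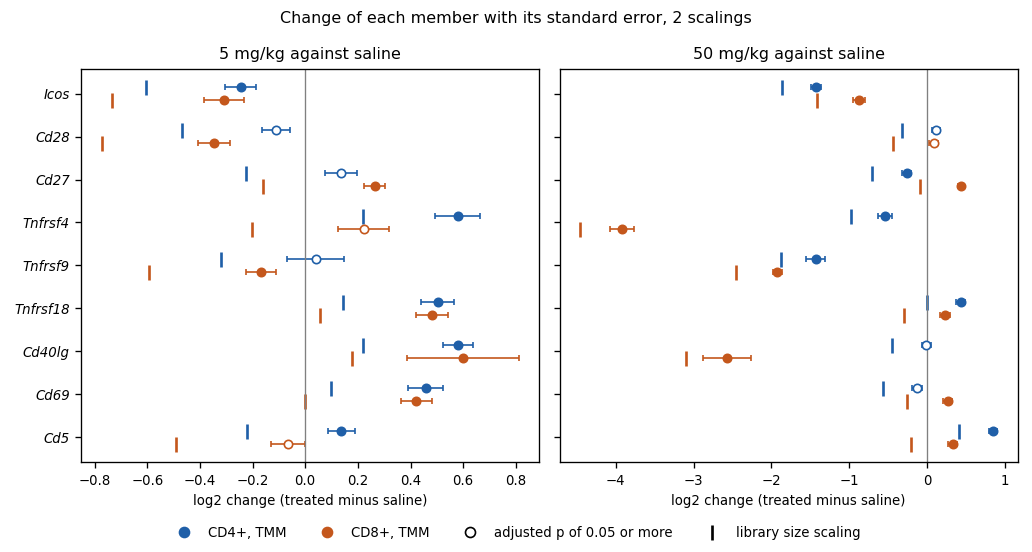
Log2 change of each member from saline at 5 mg/kg (left) and 50 mg/kg (right), in CD4+ (blue) and CD8+ (orange) cells, as TMM values with their SE (open where adjusted p was 0.05 or more) and as library size values (vertical ticks). At 50 mg/kg, Icos, Tnfrsf4 and Tnfrsf9 lie left of 0 under both scalings in both lineages. The CD8+ values of Cd28, Cd27, Tnfrsf18, Cd69 and Cd5 lie on opposite sides of 0 under the scalings, as do the CD4+ values of Cd28 and Tnfrsf18.

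The promoters of a member that fell and of one that rose are shown because both genes moved at 50 mg/kg while differing in 1 short motif. GGAAA, searched on both strands, is the core to which NFAT and some NF-κB proteins bind, and TGANTCA is the AP-1 motif. RefSeq entries (GRCm38.p6, the patch release of mm10) of bases before the gene start were found for 5 members, Cd27, Tnfrsf4, Tnfrsf9, Tnfrsf18 and Cd5. Capitals mark the matches of either motif on either strand. The Tnfrsf9 window is chr4:150919905-150920154 on the plus strand and the Cd5 window is chr19:10739027-10739224 on the minus strand.
Tnfrsf9: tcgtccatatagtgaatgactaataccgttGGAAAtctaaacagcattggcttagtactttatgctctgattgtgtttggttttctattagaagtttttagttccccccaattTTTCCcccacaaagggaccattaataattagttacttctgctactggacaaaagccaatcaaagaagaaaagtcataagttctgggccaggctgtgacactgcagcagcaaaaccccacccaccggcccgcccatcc
Cd5: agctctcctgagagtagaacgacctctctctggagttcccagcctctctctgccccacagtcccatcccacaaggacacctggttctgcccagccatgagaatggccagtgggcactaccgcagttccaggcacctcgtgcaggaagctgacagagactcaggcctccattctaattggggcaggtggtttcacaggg
The 250 bases before Tnfrsf9 hold 2 matches of GGAAA and 0 of TGANTCA, and the 198 bases before Cd5 hold 0 of each, so no matches of the motifs overlap. The windows of Tnfrsf18, Tnfrsf4 and Cd27, of 250, 150 and 141 bases, hold 2, 1 and 0 matches of the first motif and 0 of the second. Windows under 250 bases were cut where they ran into the gene, so their counts are not on a par with the others. In CD4+ cells at 50 mg/kg Tnfrsf18 rose under TMM (0.43, but -0.01 by library size), whereas Tnfrsf4 (-0.54) and Cd27 (-0.26) fell. The pair shown was thus picked for its difference, and a link of motif and direction was not tested. GGAAA occurs in 55.6% and TGANTCA in 6.7% of 32851 promoter windows of 250 bases, so a match describes the letters only.

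Between the doses, the higher one had less Icos, Tnfrsf4 and Tnfrsf9 transcript and more Cd28 and Cd5 in both lineages, under both scalings. Cd40lg was lower too under both scalings, in CD8+ cells from low levels in which the part of background was not tested. In CD4+ cells 2 members rose and 6 fell from 5 to 50 mg/kg, where 19.9% of all genes rose and 21.3% fell. The largest falls were of Tnfrsf9 (log2 change -1.47, SE 0.124), Icos (-1.18, SE 0.0633) and Tnfrsf4 (-1.12, SE 0.0875), followed by Cd40lg (-0.59), Cd69 (-0.58) and Cd27 (-0.40). Tnfrsf18 did not pass (-0.07, adjusted p = 0.367). In CD8+ cells 3 rose and 6 fell, against 20% and 21.0% of all genes. The changes were -4.15 (SE 0.157) for Tnfrsf4, -3.16 (SE 0.303) for Cd40lg, -1.76 (SE 0.0653) for Tnfrsf9 and -0.57 (SE 0.0818) for Icos, with rises of Cd28 (0.43), Cd5 (0.39) and Cd27 (0.17). Cd27 no longer passed by library size (0.06, adjusted p = 0.198) or outside the cycling clusters (0.12), nor did Tnfrsf18 (-0.25) outside them (-0.12), and the Cd69 value of -0.16 (adjusted p = 0.0373) came with overlapping pools and did not pass without any one pool other than 5 mg/kg pool 2 and 50 mg/kg pool 1.

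CD8+ and CD4+ cells of the same saline pools differed in every member. The log2 difference, CD8+ minus CD4+, was -4.41 for Cd40lg, -2.69 for Tnfrsf4, -1.44 for Icos, -0.88 for Cd5, -0.82 for Tnfrsf18, -0.59 for Cd69 and -0.56 for Cd28, and it was 0.90 for Tnfrsf9 and 0.57 for Cd27 (largest adjusted p of the 9, 4.32e-09, pool as a block). Thus 2 members were higher and 7 lower in CD8+ cells, where 21.6% of 11177 genes were higher and 18.5% lower. The same members were on these sides under library size scaling.

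The change at 50 mg/kg itself differed between the lineages for 7 members. Tnfrsf4 and Cd40lg fell further in CD8+ than in CD4+ cells, with a difference of the log2 change of -3.42 (SE 0.223, adjusted p = 1.02e-10) and -2.59 (SE 0.282, adjusted p = 3.28e-07). From saline to 50 mg/kg the CD8+ level, by library size, went from 15.2% to 1.37% of the CD4+ level for Tnfrsf4. For Cd40lg it went from 4.64% to 0.702%. The background gauge, Cd8b1 in CD4+ cells, went from 11.3% to 0.86% of its CD8+ level. The part of that background in these 2 differences was not tested. Tnfrsf9 also fell further in CD8+ cells (-0.52, adjusted p = 0.00446; -0.38 and 0.065 without 50 mg/kg pool 2, -0.49 and 0.052 by DESeq2), and Cd5 rose less there (-0.55, adjusted p = 4.01e-07). Icos fell less in CD8+ cells (0.51, adjusted p = 7.13e-06), and Cd27 (0.67, adjusted p = 4.96e-08) and Cd69 (0.36, adjusted p = 0.0017) had the higher change there. Thus 3 members had a higher and 4 a lower change in CD8+ cells, against 8.83% and 10.5% of all genes. Cd28 (-0.06, adjusted p = 0.614) and Tnfrsf18 (-0.24, adjusted p = 0.0515) did not pass, although Tnfrsf18 passed by library size (-0.30, adjusted p = 0.0121) and without saline pool 1 (-0.27), 5 mg/kg pool 1 (-0.24) or 3 (-0.23), or 50 mg/kg pool 2 (-0.31). At 5 mg/kg only Cd28 (-0.26, adjusted p = 0.037) and Cd5 (-0.24, adjusted p = 0.0387) passed, both lower in CD8+ cells, where 1.52% of all genes were lower and 2.05% higher. Neither passed without any one of the saline pools, 5 mg/kg pool 1 or 5 mg/kg pool 2, with values of -0.28 to -0.20 for Cd28 and -0.27 to -0.21 for Cd5, and Cd5 did not without 5 mg/kg pool 3 (-0.22). Tnfrsf4 (-0.42, adjusted p = 0.0748) passed by library size (-0.45, adjusted p = 0.0478), with no filter on low counts (-0.42, adjusted p = 0.000677) and without 5 mg/kg pool 1 (-0.63, adjusted p = 0.000473), and was -0.18 without 5 mg/kg pool 3.

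Fewer members were seen per cell at the higher dose, with cells set to a fixed depth. A fixed depth is akin to library size scaling, under which 59.0% of all genes fell in CD4+ and 62.7% in CD8+ cells at 50 mg/kg. Whether members occurred together beyond their single shares was not tested. After each cell was thinned to 2000 UMIs, which left out 395, 452 and 80 CD4+ and 121, 83 and 8 CD8+ cells in saline and at the lower and higher dose, 3 or more members had a UMI in 60.4% ± 1.41, 52.1% ± 4.83 and 41.3% ± 0.414 of CD4+ cells (SD, n = 3). The corresponding shares of CD8+ cells were 35.0% ± 0.810, 22.3% ± 0.588 and 17.0% ± 0.889. Icos was seen in 54.0%, 41.9% and 23.3% of thinned CD4+ cells (66.1%, 63.9% and 48.2% unthinned) and Cd5 in 48.0%, 44.6% and 58.5% (62.0%, 66.4% and 83.4% unthinned). Tnfrsf9 was seen in 25.0%, 17.5% and 5.58% of thinned CD8+ cells (41.9%, 38.7% and 17.3% unthinned). Tnfrsf4 was seen in 6.36%, 4.50% and 0.235% of thinned CD8+ cells (12.4%, 13.1% and 1.21% unthinned), and in 27.3%, 28.5% and 16.8% of CD4+ cells. Cd40lg was seen in 1.11%, 1.63% and 0.137% of thinned CD8+ cells (2.83%, 4.21% and 0.530% unthinned). Cd8b1 was seen in 26.0%, 18.3% and 5.12% of thinned CD4+ cells, at the median depths given above. The CD8+ shares of Tnfrsf4 and Cd40lg lay below it in each group, but Cd8b1 is the more abundant gene in its own lineage. By library size it stood at 1306 CPM in CD8+ saline cells, against 251 for Tnfrsf4 and 139 for Cd40lg in CD4+ saline cells. These shares of cells therefore cannot gauge the background. As a share of the other lineage's level, given above, Tnfrsf4 lay above Cd8b1 in each group and Cd40lg below it. The shares of cells alone are not read as expression.

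Inside the clusters the authors had defined, Icos fell and Cd5 rose in most CD4+ clusters. Clusters with at least 10 cells in at least 2 pools of saline and of 50 mg/kg were tested, 11 in CD4+ and 8 in CD8+ cells, and clusters C11 (regulatory T) and C12 (Th17) of CD4+ and C4 (Cd226 high, cycling) of CD8+ cells were not. Icos was lower in 9 of 11 CD4+ clusters, with log2 changes of -2.24 to -0.44, and in 7 of 8 CD8+ clusters, at -1.75 to -0.60. Of all genes tested in a CD4+ cluster, those changed in either direction made up 54.8% in C0, 20.3% in C1, 22.5% in C2, 17.7% in C3, 18.6% in C4, 53.9% in C5, 2.88% in C6, 36.6% in C7, 34.1% in C8, 26.7% in C9 and 36.2% in C10. In CD8+ clusters they made up 58.4% in C0, 26.9% in C1, 54.8% in C2, 58.9% in C3, 34.7% in C5, 38.0% in C6, 3.52% in C7 and 39.5% in C8.

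The largest Icos value was in CD4+ C4, the follicular helper cluster, where Icos is a defining receptor. Its level there was 1444 ± 174 TMM CPM in saline, 1079.8 ± 242 after 5 mg/kg and 309.9 ± 228 after 50 mg/kg (SD over pools), a log2 change of -2.24 (SE 0.28, adjusted p = 8.8e-10). C4 held 18.1%, 6.42% and 1.47% of CD4+ cells in saline and at the lower and higher dose, and it gave 26.9%, 4.67% and 0.763% of the Icos UMIs of CD4+ cells. The interferon-response cluster C10 had a fall of the same order, from 988 ± 206 to 215 ± 31.3 TMM CPM. In CD8+ cells the largest fall was in the Tcf7-high cluster C5, from 346 ± 2.99 to 101 ± 11.2 TMM CPM (log2 change -1.75, SE 0.17, adjusted p = 7.6e-10), followed by the exhausted cluster C8 at -1.67.

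Cd5 was higher in CD4+ C0 to C8, 9 of 11 clusters, with log2 changes of 0.52 to 1.47, all of them positive by library size as well. In the Tcf7-high precursor-like cluster C2 it rose from 274 ± 14.6 to 765 ± 87.2 TMM CPM (log2 change 1.47, SE 0.10, adjusted p = 5.3e-16), and in the Cd226-high effector cluster C0 from 363 ± 20.3 to 854 ± 43.7. In CD8+ cells it was higher in C1, C2, C3 and C8 (0.26 to 0.76), of which C2 and C3 were -0.10 and -0.02 under library size scaling.

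Tnfrsf9 was lower in every CD8+ cluster in which it was tested, 7 of 7, at -2.83 to -1.40, and in C1, C2, C3, C5 and C7 of the 8 CD4+ clusters tested, at -2.30 to -1.31. The fall included clusters of high level, from 598 ± 56.8 to 227 ± 48.1 TMM CPM in the exhausted CD8+ cluster C8 and from 481 ± 102 to 147 ± 37.2 in the cytotoxic CD4+ cluster C7. The untested CD8+ cluster C4 had given 44.6% of the Tnfrsf9 UMIs of CD8+ saline cells, and its share of CD8+ cells was 21.9% in saline and 0.567% at 50 mg/kg. Tnfrsf4 was lower in all 6 CD8+ clusters tested, at -4.10 to -2.41, and in C1, C2, C3, C5 and C8 of 10 CD4+ clusters, at -1.19 to -0.53. In the CD4+ effector cluster C0 and cytotoxic cluster C7 its change did not pass.

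The other members moved in fewer clusters. Cd28 was higher in CD4+ C0, C2, C3, C6 and C7 (0.46 to 1.03) and in CD8+ C1 (0.36), and lower in CD8+ C5 (-0.60), all of the same sign by library size. Cluster C6 had cells enough in only 2 of the 50 mg/kg pools. Cd27 was higher in CD4+ C0 and CD8+ C0, C1 and C3, of which CD4+ C0 (-0.10), CD8+ C0 (-0.01) and CD8+ C3 (-0.14) were of the other sign by library size, and it was lower in CD4+ C5 (-0.44) and C10 (-1.39). Tnfrsf18 was higher in CD4+ C0, C1 and the naive cluster C9 (0.32 to 1.24), and in CD8+ C0 (0.47, but -0.10 by library size). Cd69 was higher in CD8+ C0 (0.58) and passed in no CD4+ cluster. Cd40lg fell in CD4+ C7, from 210.5 ± 40.0 to 152 ± 9.99 TMM CPM (adjusted p = 0.042). In the cycling CD8+ cluster C2 it had 25 UMIs in saline and 0 at 50 mg/kg, which puts it at least 17.0-fold lower when 3 counts over the group are taken as the floor. As said above, the part of background in the Cd40lg UMIs of CD8+ cells was not tested.

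Several of these passes rest on 1 pool. Without saline pool 2 the adjusted p was 0.14 for Tnfrsf4 in CD4+ C1, 0.07 for Cd27 in CD4+ C0, 0.111 for Cd28 in CD4+ C7 and 0.222 for Cd28 and 0.21 for Cd27 in CD8+ C1. Without saline pool 3 it was 0.0635 for Cd27 in CD4+ C10, 0.421 for Cd27 in CD4+ C5, 0.196 for Tnfrsf4 and 0.113 for Cd5 in CD4+ C8, and 0.228 for Cd40lg in CD4+ C7. Without saline pool 1 it was 0.166 for Tnfrsf18 in CD4+ C1. Without 50 mg/kg pool 3 it was 0.307 for Cd27 in CD4+ C0, 0.309 for Cd28 in CD4+ C6, 0.0563 for Cd28 and 0.13 for Tnfrsf4 in CD8+ C5, and 0.108 for Cd5 in CD8+ C2. Without 50 mg/kg pool 1 it was 0.167 for Tnfrsf4 in CD4+ C2 and 0.0637 for Cd5 in CD4+ C6, and without 50 mg/kg pool 2 it was 0.0835 for Icos in CD8+ C6. By library size the rises of Cd5 in CD4+ C5 and C8 and CD8+ C1 and C8, of Cd28 in CD4+ C0 and C7 and CD8+ C1, of Tnfrsf18 in CD4+ C0 and C1, of Cd69 in CD8+ C0 and of Cd27 in CD8+ C1 stayed above 0 and did not pass.

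**Figure D3:**
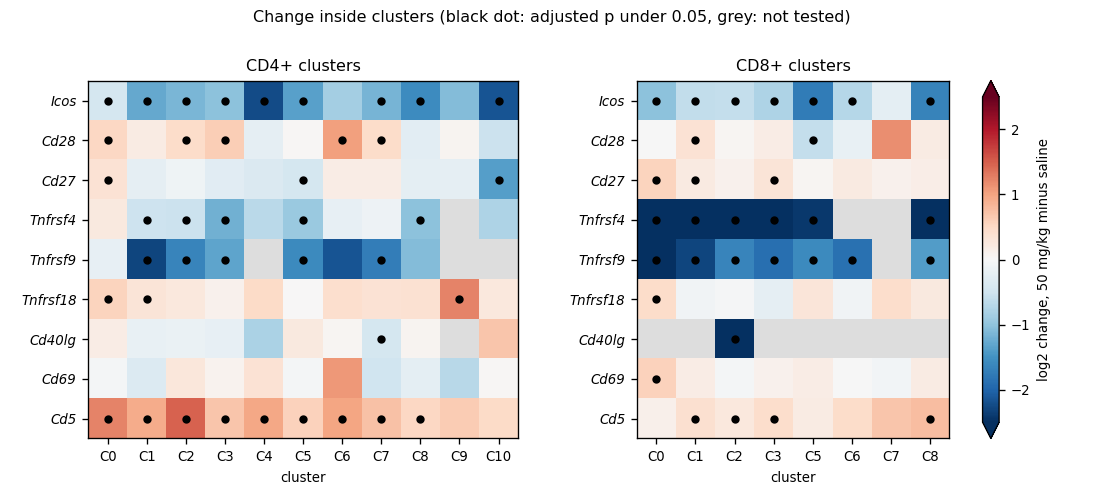
Log2 change at 50 mg/kg against saline inside each tested cluster (columns) for the 9 members (rows), TMM scaling, colour clipped at 2.5 in either direction, black dots where adjusted p was under 0.05 and grey where not tested. Icos values lie below 0 in every column and the CD4+ values of Cd5 above 0, and CD8+ C2 for Cd40lg, with 0 UMIs at 50 mg/kg, is at the end of the scale.

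A weighting of each pool's clusters to the mean saline shares gave a further view of the pooled sums, in CPM by library size. For Icos in CD4+ cells the log2 ratio of 50 mg/kg over saline was -1.87 as measured and -1.43 at saline shares, and in CD8+ cells -1.42 and -1.34. Tnfrsf9 had -1.87 and -1.61 in CD4+ and -2.45 and -2.28 in CD8+ cells, and Tnfrsf4 had -0.98 and -0.59, and -4.45 and -4.50. For Cd5 in CD4+ cells the ratio was 0.41 and 0.76. Cd69 (-0.56 and 0.04), Cd28 (-0.33 and 0.17) and Tnfrsf18 (-0.01 and 0.14) in CD4+ cells changed sign. So did, at 5 mg/kg, Cd5 in CD4+ cells (-0.23 and 0.13) and Cd40lg (0.15 and -0.07) and Cd69 (-0.01 and 0.12) in CD8+ cells. These ratios were computed without a test. At 50 mg/kg the ratios at saline shares give large weights to clusters with few cells. CD8+ C4 made up 21.9% of CD8+ saline cells and held 20 cells in all at 50 mg/kg. No pool of that dose had enough of them for the cluster tests. CD4+ C4 and C6 made up 18.1% and 10.9% of CD4+ saline cells and held 45 and 34 cells at 50 mg/kg. How far the ratios depend on these few cells was not tested.

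Each member had its own order of clusters, given as mean CPM by library size ± SD over those pools in which a cluster had 10 cells or more. These were 9 pools for most clusters, 5 for CD4+ C11, 3 for C12 and 8 for C6, and 6 for CD8+ C4 and 8 for C8, with none at 50 mg/kg for CD8+ C4. In CD4+ cells Icos was highest in C4 (761 ± 452), which led in 7 of 9 pools, and Cd28 in C4 (481 ± 121). Tnfrsf4 (754 ± 154) and Tnfrsf9 (315 ± 191) were high in the cytotoxic cluster C7, which led in 7 of 9 pools for each, and Cd40lg in C7 (212 ± 64.9) in 6 of 9. The few regulatory T cells of C11, measured in 5 pools, had the highest mean for Tnfrsf4, Tnfrsf9, Tnfrsf18 (521 ± 323) and Cd5 (783 ± 129.6). Cd27 was highest in C2 (282 ± 25.9). The naive cluster C9 was lowest for Icos (87.9 ± 54.9), Cd28 (88.7 ± 24.4), Tnfrsf4 (43.4 ± 29.2) and Cd5 (181 ± 71.3).

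In CD8+ cells the exhausted cluster C8 had the highest mean for Tnfrsf9 (461 ± 236, first in 8 of 9 pools), Cd5 (300.4 ± 84.1, in 5 of 9) and Tnfrsf18 (126 ± 21.9, in 3 of 9). It also had the highest mean for Tnfrsf4 (75.3 ± 72.3), for which C5 came first in 4 of 9 pools, and for Cd40lg (15.1 ± 16.9), in 3 of 9. The Tcf7-high cluster C5 led for Icos (241 ± 138, in 7 of 9 pools) and Cd27 (381 ± 50.7, in 6 of 9), and the naive cluster C7 for Cd69 (194 ± 41.8, in 6 of 9 pools). Most neighbours in these orders differed by less than the larger of their SDs. Among neighbours both measured in at least 8 pools, the exceptions in CD4+ cells were C7 over C6 and C5 over C9 for Tnfrsf4, C7 over C6 for Tnfrsf9, C3 over C9 for Cd28, and C1 over C9 for Icos and for Cd5. In CD8+ cells they were C8 over C1 for Cd27, C8 over C0 and C3 over C2 for Cd69, and C2 over C7 for Cd28, Icos and Cd5.

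**Figure D4:**
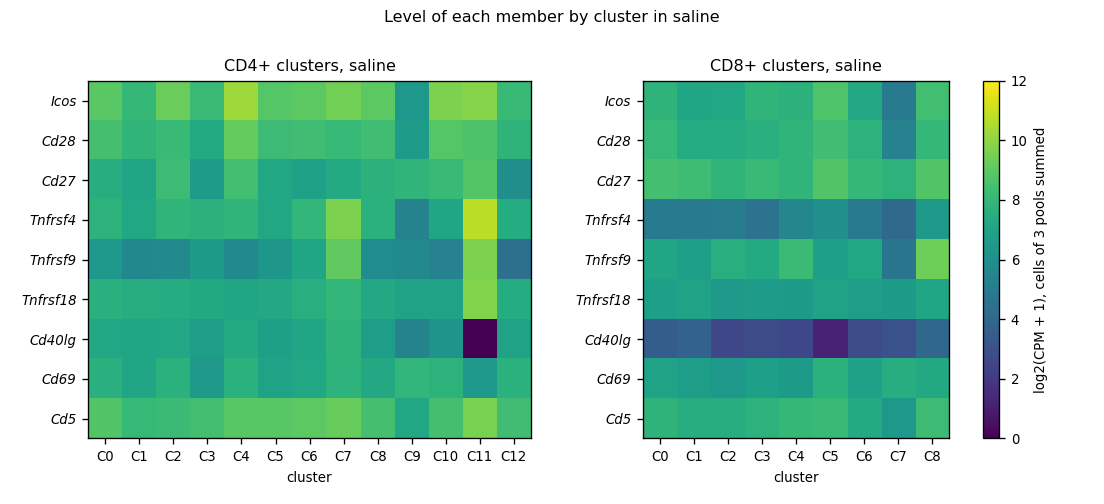
Level of each member (rows) in each CD4+ and CD8+ cluster (columns) in saline, as log2(CPM + 1) of the cells of 3 pools summed. Icos is brightest in CD4+ C4, Tnfrsf4 and Tnfrsf9 in CD4+ C11 and C7, and Tnfrsf9 of CD8+ cells in C8.

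The genes whose level moved most like a member's were sought over 36 combinations of cluster and treatment in CD4+ and 26 in CD8+ cells, which share libraries and depth, as Pearson's r of log2(CPM + 1) and with no test. For Icos they were Hif1a (0.92), B3gnt2 (0.89) and Nfatc1 (0.88) in CD4+ and Nrp1, Plscr1 and Lag3 (each 0.92) in CD8+ cells. For Cd5 in CD4+ cells Cd6, a related scavenger receptor, came first (0.89). Tnfrsf4 was most like Cd82 (0.88) in CD4+ and Tox (0.91) in CD8+ cells, and Tnfrsf9 most like Lpgat1 (0.87) and Nr4a2 (0.95). For Cd40lg in CD8+ cells the first was Tnfrsf4 (0.82), for Tnfrsf18 it was Nfkb2 (0.77), for Cd69 Socs1 (0.86) and for Cd27 Cd3e (0.82).

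The other genes of these pathways were counted at 50 mg/kg against saline from lists fixed with earlier results known. The counts stand against 34.7% of all genes that rose and 35.8% that fell in CD4+ cells and 37.1% and 36.9% in CD8+ cells under TMM, and against 15.1% and 59.0%, and 15.6% and 62.7%, by library size. Of 11 other receptors of the CD28 and TNF receptor families tested in CD4+ cells, 1 rose and 7 fell with a median log2 change of -1.18, and 0 and 9 by library size. Pdcd1, the inhibitory receptor PD-1, fell by 3.40, Btla by 1.65 and Tnfrsf25 by 1.63 on the log2 scale, whereas Tnfrsf1a, a TNF receptor, rose by 0.32 (-0.12 by library size). In CD8+ cells 3 rose and 6 fell (median -0.61), and 1 and 9 by library size, with Pdcd1 at -3.22, Tnfrsf1b at -1.79 and Btla at -0.77, and with a rise of Tnfrsf13b, a receptor of BAFF and APRIL, by 1.16 (0.63 by library size). Summed B cell markers of the CD8+ pools also rose, from 185 to 210 CPM in saline to 361 to 427 CPM at 50 mg/kg. The part of B cell RNA in the Tnfrsf13b rise was not tested.

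Of 12 other costimulatory and adhesion receptors, 3 rose and 8 fell in CD4+ cells (median -0.58) and 5 rose and 7 fell in CD8+ cells (median -0.36), and 2 and 9, and 1 and 11, by library size. Over all genes 34.7% rose and 35.8% fell in CD4+ and 37.1% and 36.9% in CD8+ cells under TMM. By library size 15.1% and 59.0%, and 15.6% and 62.7%, did so. Slamf1 fell by 2.14 in CD4+ and 2.99 in CD8+ cells and Cd226 by 1.53 and 1.91, while Cd6 rose by 1.06 and 1.18 (0.62 and 0.65 by library size). Of the members' ligands 5 of 8 were tested, with 2 higher and 3 lower in CD4+ cells and 0 and 3 in CD8+ cells. By library size these counts were 1 and 3, and 0 and 4. Of 22 adaptors and signal proteins, 4 rose and 11 fell in CD4+ and 6 rose and 12 fell in CD8+ cells, each with a median of -0.19. By library size these counts were 1 and 19, and 3 and 17, on a scale where 59.0% and 62.7% of all genes fell. Malt1 fell by 1.85 and 1.30 and Traf3, which restrains TNF receptor signalling, by 0.94 and 1.22, while Lck, the kinase of CD4 and CD8, rose by 0.66 and 0.86 (0.22 and 0.33 by library size).

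Of 5 genes linked to Cd69 and lymphocyte egress, 4 rose in each lineage and 1 fell in CD4+ and 0 in CD8+ cells, and 3 rose and 1 fell in each by library size. Of all genes, 34.7% rose in CD4+ and 37.1% in CD8+ cells under TMM, and 15.1% and 15.6% by library size. Klf2, a factor that drives S1pr1, rose by 0.94 and 1.05 and was also above 0 by library size. S1pr1, the receptor that CD69 removes from the surface, fell by 0.20 in CD4+ cells (-0.64 by library size).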

How the data were processed

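Gene counts, as the authors deposited them, were unnormalised UMIs from single-cell 5′ 10x libraries. The submitters' processing notes name Cell Ranger (version not given in the sources used here), Seurat 3.0.0 and mm10. The pool, capture, cluster and TEa mark of each cell were taken as the authors deposited them. Hashtag columns, also deposited, gave antibody counts in each cell. The deposited fraction of mitochondrial UMIs entered no test. CD8+ clusters, numbered from 1 to 9 in the table, were given the study's names C0 to C8, and marker genes served to check the match. Of these, Pdcd1 was highest in CD8+ C4 (494 CPM) and next in C5 (380 CPM), not in C8, the cluster named exhausted. Ifng was highest in C8 (842 CPM).

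Counts were summed per pool and lineage, and per pool and cluster for pools with at least 10 cells of it. TEa cells were left out. Sums were tested in edgeR 4.0.16 (R 4.3.3, limma 3.58.1) with filterByExpr, TMM scaling and the quasi-likelihood test over all pools of a lineage, p-values adjusted after Benjamini and Hochberg, and 0.05 as the threshold. CD8+ against CD4+ cells and the difference of their changes were fitted with pool as a block. The smallest summed pool held 3994968 UMIs, which limits low genes such as Cd40lg in CD8+ cells. Pools of a group share a capture, so p-values measure the spread between pools of mice within a capture. Doublets were not called here, and leaving out the 1080 cells with a strong second hashtag was an alternative chosen after seeing the data.

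The 9 members and all lists were chosen with earlier results of these data known. Other list genes were named by rule, as up to 3 rises and 3 falls of largest size per list and lineage at a mean of at least 20 CPM. Likeness was Pearson's r over combinations of at least 30 cells. On simulated counts in which 200 genes were given a log2 change of 1, the fit recovered 97.5% for 50 mg/kg against saline in CD4+ cells (10496 genes), 99.5% in CD8+ cells (10780 genes) and 92.0% for the difference of the change (10928 genes). False calls numbered 11, 7 and 7. For CD4+ cluster C1 it recovered 90.0%, with 11 false calls. Rises and falls were balanced in these counts, so they cannot test the choice between TMM and library size scaling. Alternatives were DESeq2 1.42.0, no filter, library size scaling, other samples or cells, a block for the hashtag number, no pool block and leaving out each pool. Cd8b1 in CD4+ cells was measured as a background gauge, chosen after seeing the data. Figures were drawn with matplotlib 3.10.9 in Python 3.11.15. Some genes of the marker and pathway lists are not reported here by name.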

Additional observations from a re-analysis of the deposited data

Results flagged for a closer look

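The change with CSA differed between CD8+ and CD4+ T cells for the members below, by the test of the difference itself (CD8+ minus CD4+ log2 change, edgeR quasi-likelihood test with pool as a block, 3 pools per group). At 50 mg/kg against saline the difference was -3.42 for Tnfrsf4 and -2.59 for Cd40lg, the lower change being in CD8+ cells. It was -0.52 for Tnfrsf9 and -0.55 for Cd5, and 0.67 for Cd27, 0.51 for Icos and 0.36 for Cd69. At 5 mg/kg it was -0.26 for Cd28 and -0.24 for Cd5, and neither passed by DESeq2 (adjusted p = 0.055 and 0.058) or without the pool block (adjusted p = 0.11 and 0.22). Tnfrsf4 and Cd40lg were also the members with the fewest UMIs in CD8+ cells. From saline to 50 mg/kg their CD8+ levels, by library size, went from 15.2% to 1.37% and from 4.64% to 0.702% of the CD4+ levels. Cd8b1 in CD4+ cells, a background of the other lineage, went from 11.3% to 0.86% of its CD8+ level. The part of depth and of that background in the differences was not tested.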

How the results depend on the processing

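Pools of 2 mice, 3 per group and 1 capture per group, set the limits, and low counts limit Cd40lg and Tnfrsf4 in CD8+ cells. Over all alternatives the number of members changed stayed between 5 and 8 of 9 for 5 mg/kg against saline in either lineage, between 6 and 8 at 50 mg/kg in CD4+ cells and between 8 and 9 in CD8+ cells. In the sums over a lineage, the hashtag number as a replicate block changed no member's call other than Cd28 in CD4+ cells at 50 mg/kg (0.11, adjusted p = 0.037), Tnfrsf4 in CD8+ cells at 5 mg/kg (0.22, adjusted p = 0.05) and Cd69 in CD8+ cells between the doses (-0.16, adjusted p = 0.054). Library size scaling turned the sign of Cd27 (-0.22), Tnfrsf9 (-0.32) and Cd5 (-0.22) in CD4+ cells at 5 mg/kg, of Cd28 (-0.33) and Tnfrsf18 (-0.0077) in CD4+ cells at 50 mg/kg, of Cd27 (-0.16), Tnfrsf4 (-0.20) and Cd69 (-0.0014) in CD8+ cells at 5 mg/kg, and of Cd28 (-0.44), Cd27 (-0.10), Tnfrsf18 (-0.30), Cd69 (-0.26) and Cd5 (-0.20) in CD8+ cells at 50 mg/kg. Inside clusters it turned Cd27 in CD4+ C0 (-0.10), Cd27 (-0.0086) and Tnfrsf18 (-0.10) in CD8+ C0, Cd5 in CD8+ C2 (-0.10), and Cd27 (-0.14) and Cd5 (-0.023) in CD8+ C3. It also moved the pairs of member and cluster that were higher from 18 to 11 in CD4+ and from 10 to 0 in CD8+ cells, and those lower from 22 to 36 in CD4+ cells. These turns follow from the scaling, which moves all genes by the shift given above. Cd40lg in CD4+ cells at 50 mg/kg, with a value of -0.01, turned to 0.0025 by DESeq2, 0.047 in cells outside the cycling clusters, 0.0089 without cells of 2 strong hashtags (an alternative chosen after seeing the data), and ranged from -0.073 to 0.033 without a pool. Tnfrsf18 in CD4+ cells between the doses turned to 0.11 outside the cycling clusters and ranged from -0.12 to 0.0086 without a pool, and Tnfrsf9 in CD4+ cells at 5 mg/kg ranged from -0.10 to 0.17 without a pool. For the difference of the change at 5 mg/kg, Cd40lg turned to 0.0021 without the pool block and ranged from -0.21 to 0.18 without a pool, and Tnfrsf18 ranged from -0.15 to 0.038. For that difference the members changed numbered 0 by DESeq2, 0 without the pool block, 3 by library size, 3 with no filter on low counts and 0 to 2 without a pool, against 2, and the genes changed numbered 219 without the pool block and 167 to 477 without a pool, against 399. DESeq2 called 2108 genes for CD8+ against CD4+ cells in saline, against 4483, and 722 for the difference of the change at 50 mg/kg, against 2158. Cells outside the cycling clusters gave 2836 genes between the doses in CD8+ cells, against 4443. The cause of these shifts in counts was not tested.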

Other observations

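The TEa cells, CD4+ T cells with a transgenic receptor that were left out of the comparisons, numbered 123 in the saline group, 130 at the lower and 27 at the higher dose. Their Icos level was 603 ± 114 CPM by library size in saline, 385 ± 49.7 at the lower and 146 ± 105 at the higher dose (SD over 3 pools, from 303, 302 and 28 UMIs). Cd5 was at 425 ± 125, 336 ± 53.8 and 474 ± 121 CPM, and Cd40lg at 124 ± 35.0, 183 ± 7.48 and 57.6 ± 4.03 CPM. Pools at 50 mg/kg held 7 to 11 TEa cells, and no test was run.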
